A study of Mus musculus with 6 samples.

Results

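The genes described here were the transcription factors Stat2, Stat3, Stat4, Stat5a, Stat5b and Stat6 and the feedback inhibitors Socs1, Socs3 and Cish. They were found by taking every array probe that is no control and carries the name of a member. This gave 14 probes for 9 genes, of 56605 probes and 36870 gene names on the array. TA was performed on kidneys of female mice at 6 months of age, with 3 MRL/MpJ mice (MRL) as controls and 3 MRL/MpJ-Fas lpr/lpr mice (LPR), a strain with a mutated Fas gene that develops lupus nephritis. Both groups share the MRL/MpJ background and were kept under specific pathogen-free conditions, and no treatment separates them. Each mouse gave 1 array of whole kidney RNA. In bulk kidney RNA, more cells of a type and more RNA per cell cannot be told apart.

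STAT proteins wait in the cytoplasm until a cytokine receptor and its Janus kinases (JAK) phosphorylate them. They then pair, enter the nucleus and bind short DNA sites near their target genes. Among the targets are the SOCS genes and Cish, whose proteins block the same receptors and kinases and so close a feedback loop. Interferons use Stat2 with Irf9, interleukin 6 and its relatives use Stat3, interleukin 12 uses Stat4, growth hormone and the common gamma chain cytokines use Stat5a and Stat5b, and interleukin 4 and interleukin 13 use Stat6.

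Socs1, Socs3 and Stat4 showed the largest rises of the 9 genes in LPR mice, between 4.51-fold and 6.78-fold. Stat2 and Stat3 rose by less, 1.51-fold and 1.37-fold on their brightest probes. Stat5a, Stat5b and Stat6 differed by at most 0.18 on the log2 scale on their brightest probes and did not pass the test. Cish was the only member whose mean was lower in LPR mice by more than 0.1 on the log2 scale, with overlapping groups and without passing the test.

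All 14 probes were well above background on all 6 arrays, so the filter on dim probes removed no member. A value here is a log2 intensity minus the 75th percentile of its array. It orders mice on the same probe and says nothing about which of 2 probes measures the more abundant transcript. A log2 change is LPR minus MRL, tested by limma with Benjamini-Hochberg adjustment over 39924 probes. At an adjusted p under 0.05, 6 of the 14 probes were higher and 0 were lower, where 6.54% of all tested probes were higher and 6.07% were lower. At an unadjusted p under 0.05 the counts were also 6 and 0 in limma, beside 9.87% higher and 20.3% lower of all tested probes. With a gene given by its brightest tested probe, 5 of 9 genes were higher and 0 were lower, beside 7.12% and 5.39% of 25805 genes. The median log2 change was 0.45 over the 9 genes and -0.12 over all tested genes. In 10 of the 14 probes every LPR mouse was above every MRL mouse, which held for 11.1% of all tested probes, and in 0 probes every LPR mouse was below, which held for 26.6%. By genes these counts were 7 and 0 of 9, beside 11.8% and 25.4%.

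**Figure D1:**
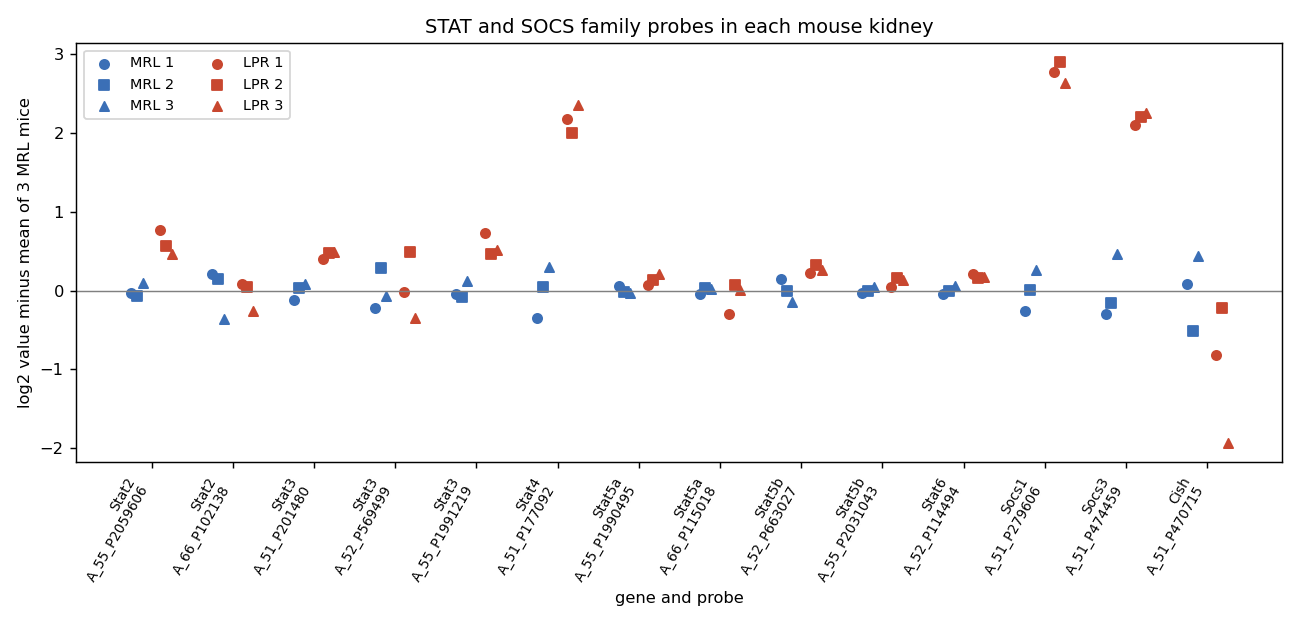
Each point is 1 mouse on 1 probe, drawn as its log2 value minus the mean of the 3 MRL mice on that probe (vertical axis, log2 units). The LPR mice stand clear of the MRL mice for Stat4, Socs1 and Socs3, lie slightly above them for Stat2 A_55_P2059606 and for Stat3 A_51_P201480 and A_55_P1991219, and are spread widely below and among them for Cish.

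Socs1 binds and blocks JAK kinases and is induced by interferon. On its probe A_51_P279606 the MRL mice had log2 values of -3.42, -3.16 and -2.89, and the LPR mice -0.39, -0.26 and -0.53. The groups lay far apart, and the gap between the highest MRL and the lowest LPR mouse was larger than the range within either group. The log2 change was 2.76 with a standard error of 0.16 (limma, adjusted p = 8.53e-05), or 6.78-fold. As deposited, before any scaling between arrays, the probe read 67.8 to 94.2 intensity units in MRL mice and 520.7 to 708.9 in LPR mice.

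Socs3 blocks signalling at gp130 receptors, through which interleukin 6 acts, and is itself a Stat3 target. Its probe A_51_P474459 gave -0.98, -0.85 and -0.23 in MRL mice and 1.41, 1.52 and 1.57 in LPR mice. MRL 3 was the highest control and still lay well under every LPR mouse. The log2 change was 2.19 with a standard error of 0.20 (limma, adjusted p = 0.00071), or 4.56-fold. The SD was 0.40 among MRL mice and 0.08 among LPR mice.

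Cish, which competes for receptor sites used by Stat5 proteins, showed no such rise. Its probe A_51_P470715 gave 2.74, 2.14 and 3.09 in MRL mice and 1.84, 2.44 and 0.72 in LPR mice. The groups overlapped, with LPR 2 above MRL 2, and LPR 3 was the lowest of the 6 kidneys. The mean was 0.99 lower in LPR mice (log2 change -0.99, standard error 0.45, limma, adjusted p = 0.187). The 95% interval ran from -2.05 to 0.06, so neither a small rise nor a fall of over 2 log2 units could be told from no change at this number of mice. Cish was also unusually variable within groups, since only 2.17% of the tested probes had a larger standard error and the median over all tested probes was 0.14. Without LPR 3 the log2 change was the smallest of those with 1 mouse left out, at -0.52.

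Socs2 is no member but belongs to the same family and like Cish is a known target of growth hormone and Stat5. On its brightest probe it varied in the same way. This probe, A_51_P107362, gave 2.05, 0.83 and 1.84 in MRL mice and 0.89, 1.65 and -0.40 in LPR mice. Socs2 has 4 tested probes, none of which passed, and the others were not set against Cish. MRL 1 and MRL 3 were the highest for both genes, LPR 2 came next, MRL 2 and LPR 1 followed, and LPR 3 was lowest. The log2 change of Socs2 was -0.86 with a standard error of 0.55 and did not pass (limma, adjusted p = 0.326), and 1.07% of the tested probes had a larger standard error.

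**Figure D2:**
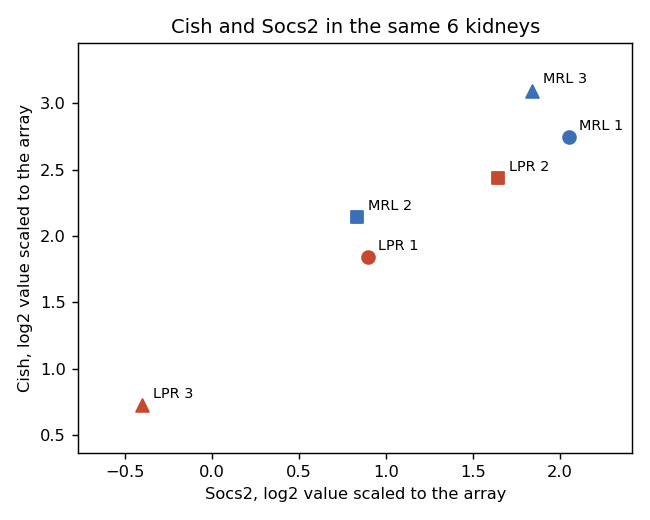
Scaled log2 values of the brightest Socs2 probe (horizontal axis) and of Cish (vertical axis) in each of the 6 kidneys, with MRL mice in blue and LPR mice in red. The mice run from LPR 3, lowest for both genes, to MRL 1 and MRL 3, highest for both, and the groups are mixed in between.

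Stat4 carries the interleukin 12 signal in T cells and natural killer cells and drives interferon gamma production. Its only probe, A_51_P177092, gave -4.59, -4.19 and -3.95 in MRL mice and -2.07, -2.24 and -1.90 in LPR mice. Every LPR mouse was above every MRL mouse, and the MRL mice were the more spread. The log2 change was 2.17 with a standard error of 0.18 (limma, adjusted p = 0.000472), or 4.51-fold. The MRL signals were dim, at 30.3 to 45.2 intensity units, and the dimmest probes that still counted as well above background on these arrays had log2 values of -5.86 to -5.99. With normexp background correction, which added an offset of 50 intensity units, the log2 change of Stat4 was 1.13 and still passed (limma, adjusted p = 2.52e-05).

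Most listed markers of T cells and natural killer cells were higher in LPR mice, as Stat4 was. Of the 8 listed T cell markers, 7 were tested and 6 were higher, and their summed scaled signal was 1.84 to 2.14 in MRL mice and 13.1 to 15.4 in LPR mice. Of the 5 natural killer cell markers tested, 4 were higher, and their summed signal went from 0.371 to 0.670 in MRL mice to 5.03 to 5.65 in LPR mice. The part of these cells in the Stat4, Socs1 and Socs3 values was not tested. Macrophage markers were higher for 7 of 8 (summed signal 15.4 to 18.9 in MRL and 46.1 to 51.7 in LPR mice), B cell markers for 4 of 7 tested and plasma cell markers for 5 of 6. Neutrophil markers were higher for 2 of 6, and the other 4 did not pass. Of the 29 tested markers of kidney cells 5 were lower, counted by the brightest probe of each. They were Kdr of endothelium, Lrp2 and Slc5a2 of proximal tubule, Calb1 of distal tubule and Atp6v1g3 of collecting duct, named after their values were seen. Lrp2 was lower on 1 of 5 tested probes and Slc5a2 on 1 of 2. In all, 28 of 68 tested cell type markers were higher.

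Stat2 is the STAT that joins Irf9 in the interferon complex, and 1 of its 2 probes passed the test. Probe A_55_P2059606 at chr10:127729834-127729893, on the plus strand of mm9, gave 0.81, 0.77 and 0.93 in MRL mice and 1.60, 1.40 and 1.30 in LPR mice. All LPR mice were above all MRL mice, and the log2 change was 0.59 with a standard error of 0.12 (limma, adjusted p = 0.0222). Probe A_66_P102138, which lies 9531 bases nearer the start of the gene and spans a splice junction of chr10:127719861-127720302, gave -3.67, -3.72 and -4.23 in MRL mice and -3.78, -3.83 and -4.13 in LPR mice. These values overlapped, and the log2 change was -0.04 with a 95% interval of -0.48 to 0.39 (limma, adjusted p = 0.894). The 95% interval of the first probe was 0.31 to 0.88, so the intervals of the 2 probes overlapped. The second probe was dim, at 37.4 to 67.6 intensity units, beside 1206.9 to 2826.2 for the first. Within each array, the first probe exceeded the second by 4.48, 4.49 and 5.16 log2 units in MRL mice and by 5.39, 5.23 and 5.43 in LPR mice. This difference between the probes was 0.64 larger in LPR mice without overlap, at an exact two-sided permutation p of 0.1, the smallest that 3 against 3 mice allow, and 0.45 after adjustment over the 6 pairs of probes of 1 gene. Both probes carry the same RefSeq accession. They begin as follows, and the first 30 of 60 bases are shown because the finding for Stat2 depends on which of them is read.
Stat2 A_55_P2059606: ctgaatagttagaaagaactgttgtcctga
Stat2 A_66_P102138: gactctggtggagcaacgcgctgtgggtgc
Of the 60 bases, 35% are G or C in the first probe and 65% in the second.

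Stat3, the main carrier of interleukin 6 signals, was measured by 3 probes on the minus strand of chromosome 11. The brightest, A_51_P201480 at chr11:100749598-100749657 of mm9, gave 2.67, 2.82 and 2.86 in MRL mice and 3.19, 3.26 and 3.27 in LPR mice. The rise was small but clear of the spread within groups, with a log2 change of 0.45 and a standard error of 0.10 (limma, adjusted p = 0.0342). Probe A_55_P1991219 at chr11:100759946-100760005 gave -3.19, -3.23 and -3.03 in MRL mice and -2.43, -2.68 and -2.64 in LPR mice, a log2 change of 0.57 with a standard error of 0.12 (limma, adjusted p = 0.0263). So a pair of Stat3 probes 10288 bases apart rose together. The third, A_52_P569499 at chr11:100746462-100746521, gave -4.63, -4.12 and -4.48 in MRL mice and -4.42, -3.93 and -4.76 in LPR mice. Its groups overlapped, and the log2 change was 0.04 with a 95% interval of -0.52 to 0.60 (limma, adjusted p = 0.924). This last probe lies 3076 bases beyond the brightest one in the direction of transcription and carries a transcript accession of Ensembl. It lies 29 bases from Stat5a probe A_55_P1990495, which lies on the opposite strand, since Stat3 and Stat5a run toward each other there. No difference between the 3 probes of Stat3 separated the groups without overlap. Their first 30 bases are shown for the same reason as those of Stat2.
Stat3 A_51_P201480: cactctgtgagctgataccccaggctggga
Stat3 A_55_P1991219: tttaacattctgggcacgaacacaaaagtg
Stat3 A_52_P569499: atccatcacacagcccagtaaaccaggaag

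Stat5a, Stat5b and Stat6 stayed close to their control levels. Stat5a had log2 changes of -0.07 on its brightest probe A_66_P115018 and 0.14 on A_55_P1990495 (limma, adjusted p = 0.726 and 0.366). The 95% intervals, -0.37 to 0.23 and -0.09 to 0.37, leave room for changes of at most that size. Stat5b had 0.11 on A_55_P2031043 and 0.27 on A_52_P663027 (limma, adjusted p = 0.469 and 0.167). Stat6 gave 0.52, 0.56 and 0.62 in MRL mice and 0.77, 0.73 and 0.74 in LPR mice on A_52_P114494. All LPR mice were above all MRL mice for Stat6, but the log2 change of 0.18, with a 95% interval of -0.04 to 0.40, did not pass (limma, adjusted p = 0.249). The same separation without passing was seen for Stat5a A_55_P1990495 and both Stat5b probes.

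**Figure D3:**
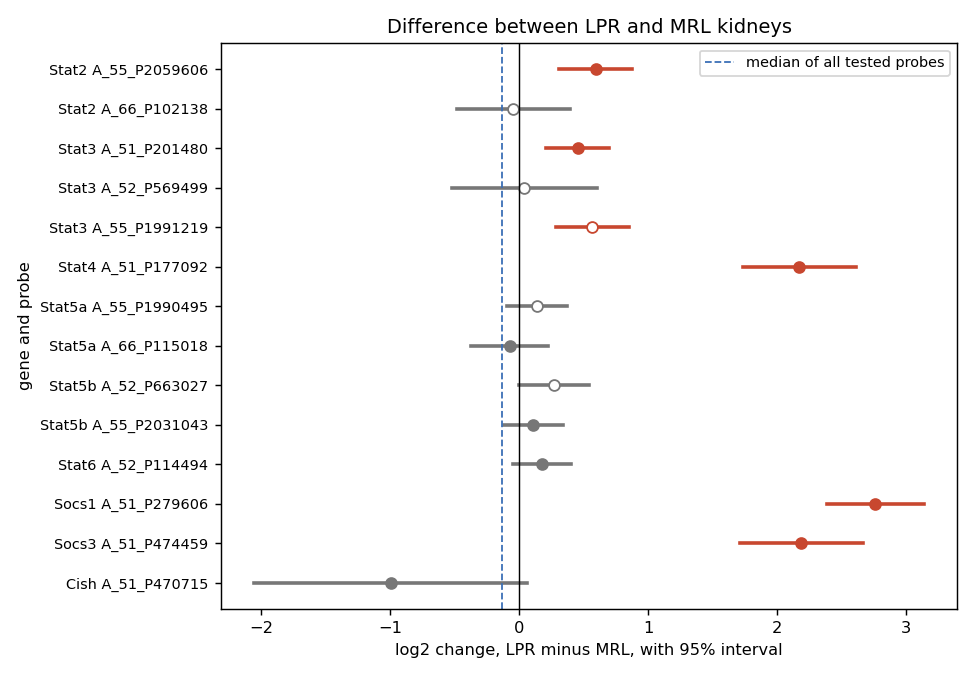
Log2 change (LPR minus MRL, horizontal axis) of each of the 14 probes with its 95% interval from limma, red where the adjusted p was under 0.05. Filled circles are the probe that stands for its gene, open circles its other probes, and the dashed line is the median of all tested probes at -0.13. Socs1, Stat4 and Socs3 lie above 2, Stat2 and Stat3 near 0.5, and the interval of Cish is the widest.

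The calls differed in whether they held with 1 mouse less. Each such fit has fewer arrays, and fewer probes were called over the whole array. With 1 mouse left out, 1968 to 2378 probes were higher and 749 to 2270 lower, beside 2610 and 2423 with all 6. The part of the smaller number of mice in the lost calls was not tested. Socs1, Socs3 and Stat4 passed without any 1 of the 6 mice, with log2 changes of 2.63 to 2.89, 2.04 to 2.42 and 2.00 to 2.32. Stat2 A_55_P2059606 passed without LPR 2 or LPR 3 and did not pass without MRL 1, MRL 2, MRL 3 or LPR 1 (limma, adjusted p = 0.0739, 0.0865, 0.0530 and 0.0525), with log2 changes of 0.51 to 0.66. Stat3 A_51_P201480 passed in none of the 6 fits without 1 mouse (limma, adjusted p = 0.0581 to 0.107), with log2 changes of 0.39 to 0.49. Stat3 A_55_P1991219 passed only without LPR 2 (limma, adjusted p = 0.0359), with log2 changes of 0.49 to 0.63. So 3 to 5 of the 6 probes and 3 or 4 of the 5 genes were called with 1 mouse less. Given by the average of their probes, Stat2 had a log2 change of 0.28 and Stat3 of 0.35, and neither passed (limma, adjusted p = 0.186 and 0.0929).

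**Figure D4:**
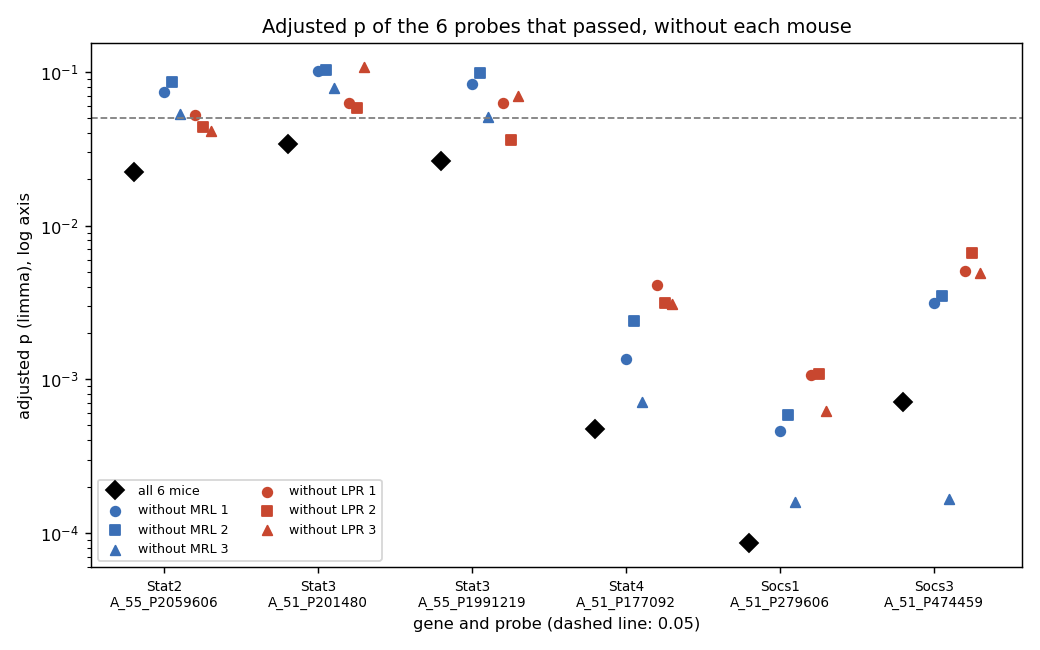
Adjusted p from limma (log axis) of the 6 member probes that passed, with all 6 mice (black) and without each mouse (blue for MRL, red for LPR). All points of Stat4, Socs1 and Socs3 lie under the dashed line at 0.05, while most points of Stat2 and of both Stat3 probes lie above it.

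The 6 arrays were on 1 slide, and the positions on the slide are given by a pair of numbers. LPR 1 shared the first number with the 3 MRL arrays, and set against their mean it was 2.76 higher for Socs1, 2.10 for Socs3 and 2.17 for Stat4. LPR 2 and MRL 1 shared the second number, as did LPR 3 and MRL 2. Within these pairs the log2 differences were 3.16 and 2.63 for Socs1, 2.50 and 2.42 for Socs3, and 2.34 and 2.30 for Stat4. Each of these differences was in the direction of the comparison of all mice, and the part of the slide position in them was not tested.

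The windows around the starts of the 9 genes were searched for the letters that STAT complexes are known to bind, since these members are also targets of the pathway. All 9 genes had at least 1 window in the RefSeq promoter table (GRCm38.p6), which holds 250 bases before and 50 after each start. The search used TTCNNNGAA, the gamma-activated site of STAT pairs, and TTCNNTTTC, the core of the interferon-stimulated element bound by Stat2 with Irf9. Both strands were read, so that GAAANNGAA counts as the second motif, while the first reads the same on either strand. The interferon motif was found before the starts of Stat2, Stat4 and Socs1. Stat4 and Socs1 were called higher in LPR mice, and Stat2 on its brighter probe only. Socs3 and the brightest probe of Stat3 were also called higher, without this motif in their windows. The gamma-activated motif was found for Socs3 and Cish. No window of Stat3, Stat5a, Stat5b or Stat6 held any of the motifs, which says only that these letters are not in these windows. The stretches with a match are given below with the matching letters in capitals, read 5′ to 3′ along the gene.
Socs1, chr16:10785582-10785641, minus strand: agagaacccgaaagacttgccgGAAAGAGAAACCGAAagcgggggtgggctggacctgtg
Stat2, chr10:128270252-128270311, plus strand: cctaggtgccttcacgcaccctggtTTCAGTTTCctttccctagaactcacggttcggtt
Stat4, chr1:52008118-52008177, plus strand: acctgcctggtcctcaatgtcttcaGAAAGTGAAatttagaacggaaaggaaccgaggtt
Socs3, chr11:117969486-117969545, minus strand: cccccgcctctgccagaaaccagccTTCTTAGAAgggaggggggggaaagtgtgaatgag
Cish, chr9:107296654-107296683, plus strand: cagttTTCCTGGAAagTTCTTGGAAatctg
In Socs1 a pair of overlapping interferon motifs fills bases -83 to -69 before the start. In Cish a pair of gamma-activated motifs, 2 bases apart, lies at bases 1 to 20 from the annotated start.

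The same letters were counted in all windows. The interferon motif was in 8.56% of 32851 windows and the gamma-activated motif in 8.30%. Counted by genes, as for the members, these shares were 9.76% and 9.55% of 27025 genes with a window. Among 14253 tested genes with a window, 7.16% were higher in LPR mice. This share was 13.5% among the 1274 tested genes with the interferon motif and 10.2% among the 1241 with the gamma-activated motif. The shares are a description over genes, which are not independent of each other, and the median log2 change with the interferon motif was -0.07 beside -0.12 for all.

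The other genes of the pathway were followed by their roles, with 93 genes listed and 85 tested. Counted by the brightest tested probe of each, 30 were higher, 2 were lower and 53 did not pass. Of the 4 JAK kinases only Jak3, which pairs with the common gamma chain, passed, with a log2 change of 0.65 on its brightest probe (limma, adjusted p = 0.0420), and it passed on 1 of its 3 probes. Jak1 had -0.08, Jak2 0.19 and Tyk2 0.52 without passing. Irf9, the partner of Stat2, was 2.32-fold higher, with values of 0.73, 0.62 and 0.86 in MRL mice and 1.95, 2.02 and 1.88 in LPR mice (limma, adjusted p = 0.000618). Irf9 thus showed a larger change than either probe of Stat2 in the same kidneys, and this difference was not tested.

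Of the 5 SOCS genes outside the members, Socs5 passed and was lower, with 1.00, 0.91 and 1.07 in MRL mice and 0.39, 0.53 and 0.27 in LPR mice, a log2 change of -0.60 (limma, adjusted p = 0.0174). Socs4, Socs6 and Socs7 had log2 changes of -0.41, 0.04 and -0.15 without passing. The rises within the SOCS family were thus those of Socs1 and Socs3, both of which are known as fast targets of cytokine signals. Of 9 other inhibitors, Ptpn6, a phosphatase of blood cells, was 2.13-fold higher and Usp18, which restrains the interferon receptor, was 1.95-fold higher. The remaining 7 did not pass on their brightest probes, while Ptpn1 was higher on 1 of its 2 tested probes. The names of Socs5, Ptpn6, Usp18 and Ptpn1 were chosen after their values were seen.

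Receptors and ligands that feed the members differed by family. Interleukin 12 acts on Stat4 through Il12rb1, which was 6.25-fold higher (limma, adjusted p = 2.24e-05), while Il12rb2 did not pass with -0.74. Interferon gamma, a product of cells in which Stat4 is active, is encoded by Ifng. The Ifng probe was well above background in all LPR mice and in no MRL mouse, so it entered the test only through the LPR arrays. Its signal was at least 16.5-fold higher, reckoned from the lowest signal well above background on each MRL array. Of the gamma chain receptors 5 of 9 were higher, led by Il7r at 14.5-fold, Il2rb at 12.7-fold and Il9r at no less than 5.78-fold by the same kind of bound. Of 9 receptors that act on Stat5, 3 were higher, led by Csf2rb at 9.09-fold. The growth hormone receptor Ghr, named after its values were seen, did not pass on its brightest probe A_51_P499854 (log2 change -0.53, limma, adjusted p = 0.102), but 2 of its 4 probes were lower, with log2 changes of -0.59 on A_52_P680941 and -0.53 on A_55_P2500473 (limma, adjusted p = 0.0189 and 0.0152). Il10ra was 6.80-fold higher. By brightest probes, 1 of 4 interferon receptors and 1 of 6 gp130 receptors were higher. These were Ifngr2 at 1.54-fold and Il6ra at 1.74-fold. Il6ra passed on 1 of its 2 probes. Ifnar2 was higher on 1 of 2 probes, and Lifr was lower on 1 of 3 tested probes and Lepr on 1 of 4, none of them the brightest. These 5 receptors were named after their values were seen.

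Of 13 tested ligands 4 were higher and 1 was lower. Osm, which acts through gp130 on Stat3, was 5.43-fold higher, and Il10 was at least 2.31-fold higher by this bound. The lower one was Il21 on its brightest probe A_55_P2744827, with a log2 change of -0.90 (limma, adjusted p = 0.0266). Its other probe, A_55_P2106121, was above background only in LPR mice and at least 4.40-fold higher by this bound, so the probes of Il21 disagree. Of 20 tested target genes 10 passed, all of them higher. They included Irf1, an interferon gamma target, at 5.42-fold, Timp1, a Stat3 target, at 5.90-fold, and Chil3, a Stat6 target, at 6.60-fold. The other 10 did not pass on their brightest probes, among them Junb, Myc and Fgg with log2 changes of 0.69, 0.50 and 0.17. Of the other listed genes that Stat6 is known to induce, Retnla, Gata3 and Fcer2a did not pass, with log2 changes of 1.28, -0.25 and -0.21, and Arg1, well above background on 2 of the 6 arrays, was not tested.

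**Figure D5:**
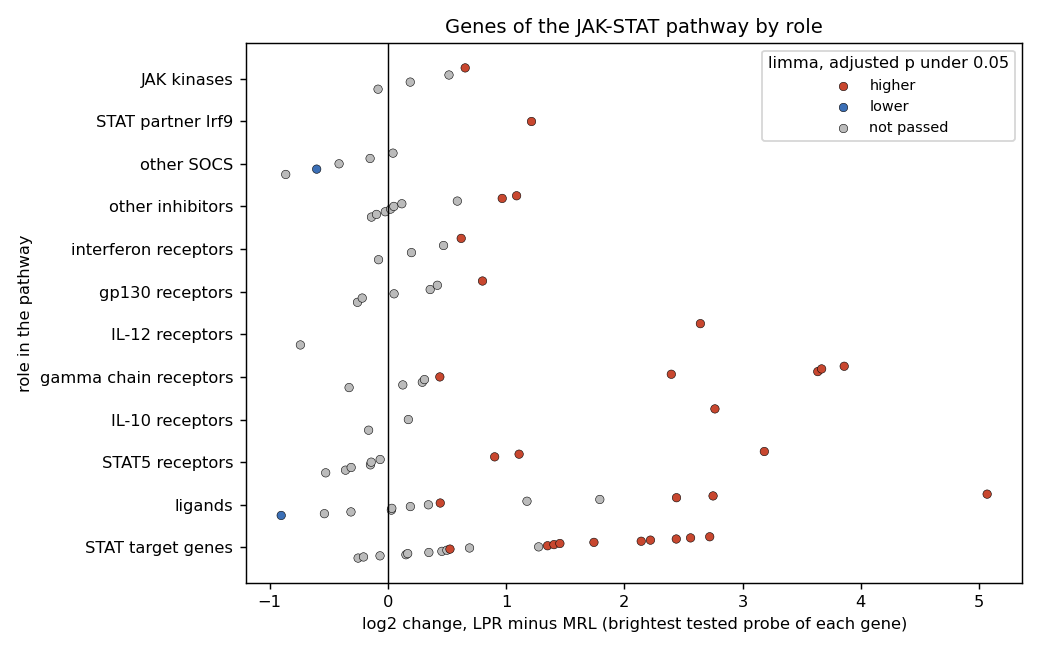
Each point is 1 tested gene of the pathway at its log2 change (horizontal axis), in 1 row for each role, red where higher, blue where lower and grey where the adjusted p was not under 0.05. The 30 red points reach furthest right among ligands and gamma chain receptors, up to 5.07 for Ifng on the fitted scale, and 1 of the other SOCS genes is blue.

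Genes whose values ran most nearly parallel to those of the 3 members with the smallest p were sought among 14561 genes with a RefSeq mRNA accession and a signal above background on all arrays. The measure was Pearson's r over the 6 arrays, in which the difference between the groups dominates. Socs1 was nearest to Lgals3bp, Cyth4 and C1qa, which rose by 1.56, 2.32 and 3.43 log2 units, and 215 genes had an r over 0.99 with it. Stat4 was nearest to Rtp4, Dapp1 and Arhgdib, with 121 such genes, and Socs3 to Evi2a, Rassf2 and Ly86, with 130. The list for each is long, so that the nearest names do not single out a partner.

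The number of arrays limits the precision of all these values. Each array held 59305 spots that are no controls, of which 69.6% to 73.5% were well above background, and none was saturated. Log2 values of 2 arrays correlated with r of 0.99 within a group and of 0.96 to 0.97 between groups, over probes. The 75th percentile was 700 to 751 intensity units on 5 arrays and 930 on LPR 1. Fas, the gene mutated in LPR mice, did not pass on its brightest probe A_55_P2091676 (log2 change -0.47, limma, adjusted p = 0.235), although every LPR mouse (-0.47, -1.23 and -0.36) was below every MRL mouse (-0.35, -0.27 and -0.04). Its other probe A_52_P73385 went the other way. That probe was well above background in all LPR mice and in no MRL mouse, and was at least 1.47-fold higher.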

How the data were processed

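TA data of the kidneys of 3 MRL and 3 LPR mice were used, with 1 Agilent SurePrint G3 mouse array per mouse. Per the file headers, the authors obtained the intensity of each spot with Feature Extraction 12.0.3.1, with background subtracted within the array and no scaling between arrays. The authors also deposited a table of each intensity as a ratio to a constant of its array, which was used as an alternative. RNA was prepared with the RNeasy Mini Kit according to the labels and with Trizol according to the paper.

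Control spots and between 73 and 90 outlier spots per array were left out. From each log2 intensity the array's own 75th percentile was taken away, which is the shift named in the paper's methods. Spots of 1 probe were averaged. Probes well above background on at least 3 of 6 arrays were tested, 39924 in all, with limma 3.58.1 in R 4.3.3 and Benjamini-Hochberg adjustment at 0.05. The gene names are those of the array. Of 14 member probes, 12 carry a RefSeq accession and all 12 match the same current symbol. Probe coordinates are on mm9 and promoter windows on GRCm38.p6, and none were converted. Exons and UTRs were not assigned here.

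The members, lists, tests and alternatives were chosen with earlier results of these data known. Named outside the members were the JAK kinases, Irf9, the other SOCS genes, the 12 called pathway genes of largest change, the 3 genes most parallel to each of 3 members, Fas, and genes said in the text to be named after their values were seen. Il12rb2, Il21 and the target genes that did not pass were also named after their values were seen. Genes are summed over cell type lists as linear scaled signals. Separate animals are given by the labels only as sample numbers, so p-values measure the spread between these samples. The alternatives were other background corrections, scalings, filters, a floor, slide positions and the replicate number as blocks, a gene given by the average of its probes, the methods' test and leaving out each mouse. On simulated arrays of 39924 probes for LPR against MRL, 200 probes were changed and noise was drawn for each probe separately. Of these, 60 of 100 changed by 1 log2 unit and 88 of 100 changed by 2 were recovered, with 7 false calls (seed 11). In the data 12.6% of tested probes were called, a far larger share than was changed here. The recovered shares and false calls therefore check the fit and do not describe the data. Plots come from matplotlib 3.10.9 and python 3.11.15.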

Additional observations from a re-analysis of the deposited data

How the results depend on the processing

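Each member probe was refitted under 20 alternatives. Socs1, Socs3 and Stat4 passed in all 20, and Stat2 A_55_P2059606 in 12, Stat3 A_51_P201480 in 9 and Stat3 A_55_P1991219 in 10. No other member probe passed in any. Normexp background correction added an offset of 50 intensity units. With it the log2 change of Stat4 was 1.13 and that of Stat3 A_55_P1991219 was 0.32, both dim probes. The brighter probes Stat3 A_51_P201480 and Socs3 A_51_P474459 had 0.45 and 2.06. The part of the offset in these values was not tested. Against 6 member probes and 5 genes, 3 probes and 3 genes were called with no filter on dim probes, with the second position number as a block and with the replicate block, 3 genes where a gene was given by the average of its probes, and 3 to 5 probes and 3 to 4 genes with 1 mouse left out. The same replicate numbers do not pair the mice (correlation of deviations 0.115, 0.020 and 0.005). The methods' t-test, run here without the paper's 10-fold filter, called 9 probes higher and 0 lower at an unadjusted p under 0.05. Of all tested probes, 9.0% were higher and 17.8% lower by the same rule, and 4 member probes were higher after adjustment. The paper tested only genes at least 10-fold over the control. No member reached that, and the largest change was that of Socs1 at 6.78-fold. The log2 change turned its sign, always without passing, to 0.088 with the first position number as a block for Stat2 A_66_P102138 (-0.22 to 0.066 with 1 mouse left out), to -0.072 with normexp and -0.012 with the first position number for Stat3 A_52_P569499 (-0.18 to 0.24), and to 0.043 with the second position number for Stat5a A_66_P115018 (-0.14 to 0.037).

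Over the whole array 2610 probes were higher and 2423 lower, a share of higher calls of 51.9%. Lower probes, pathway genes and markers moved most. The counts of lower probes were 4542 with normexp (higher share 35.8%), 1086 with no filter (66.5%), 456 with the first (76.3%) and 1007 with the second position number (67.6%), 1107 with the replicate block (66.6%) and 1346 with the methods' t-test. Higher probes fell to 1469 with the first position number and to 1732 with the methods' t-test. Lower pathway genes were 2, and 1 with no filter, the floor, the second position number or the methods' t-test, and 0 with the first position number or the replicate block. Lower markers were 5, and 10 with normexp or the intensity trend, 0 with no filter, 3 with the first and 1 with the second position number, 2 with the replicate block and 3 with the methods' t-test. With 1 mouse left out, 1968 to 2378 probes were higher and 749 to 2270 lower, with 0 to 3 lower pathway genes and 0 to 3 lower markers, and the higher share was 51.2% to 73.1%. The MRL signals of Ifng, Il9r, Il10, Il21 A_55_P2106121 and Fas A_52_P73385 were not well above background on any MRL array, so their rises are lower bounds. These probes entered the test only through the LPR arrays. Ifng, Il9r and Il10 are among the pathway genes counted as higher.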
